A study of Mus musculus with 4 samples.

Results

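The genes described here encode the proteins of the cytosolic ribosome, chosen by symbol: Rpl or Rps followed by a number, with an optional final letter or digit, plus Rplp0, Rplp1, Rplp2 and Rpsa, without pseudogenes and without the ribosomal S6 kinases. The rule found 83 genes among the 33696 listed, of which 51 belong to the large subunit and 32 to the small subunit. Their transcripts were followed in 4 single-cell RNA sequencing libraries of mouse Achilles tendon. In droplet sequencing each captured transcript molecule carries a unique molecular identifier (UMI), and the UMIs of these 83 genes made up 11.5% of all UMIs in the 32845 cells kept.

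The study set injured against control tendon in neonates and in adults, with 1 library for each of the 4 groups. Neonate injury was tendon labelled P3, postnatal day 3, with tendon injury, and neonate control was tendon of the same label without injury. Adult injury was tendon of mice of 6 to 8 weeks with tendon injury, and adult control was tendon of that age without injury. No genotype, transgene or drug is named for any group. The time after injury, the number of mice pooled and their sex are not in the labels, nor whether the age is that at injury or at harvest.

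The ribosome is built from a small subunit, which reads the mRNA, and a large subunit, which joins the amino acids, and each needs about equal numbers of its proteins. The mRNAs of these proteins belong to the TOP class, whose transcripts start with a C followed by a run of pyrimidines, and this 5′ terminal oligopyrimidine tract couples their translation to growth signalling through mTOR and Larp1. They are among the most abundant mRNAs of growing cells. In tendon, fibroblast-lineage cells including tenocytes make the collagen matrix and so depend on this machinery.

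Start regions are shown for 6 members that carry the results below. Of these, 4 of short coding length were higher after neonatal injury, and 2 of long coding length were lower in adult than in neonate control. Each region is 15 bases before and 15 bases from an annotated start of the gene. It covers the edge of the promoter and the beginning of the exon at the 5′ end. Capitals mark the longest run of C and T that opens with C. Where a gene had several annotated starts, the start with the longest such run was chosen for display.
Rpl41: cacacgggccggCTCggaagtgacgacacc
Rps21: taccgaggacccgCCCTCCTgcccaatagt
Rplp2: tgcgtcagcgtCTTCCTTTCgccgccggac
Rps27: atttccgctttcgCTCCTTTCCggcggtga
Rps2: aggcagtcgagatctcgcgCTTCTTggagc
Rplp0: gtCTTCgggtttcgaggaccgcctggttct
These are RefSeq sequences of build GRCm38.p6, which is not the build the reads were aligned to. They lie at chr10:128549154-128549183 on the minus strand (Rpl41), chr2:180257364-180257393 on the plus strand (Rps21), chr7:141447636-141447665 on the plus strand (Rplp2), chr3:90213634-90213663 on the minus strand (Rps27), chr17:24720048-24720077 on the plus strand (Rps2) and chr5:115559452-115559481 on the plus strand (Rplp0). The search was for a C followed by 7 or more of C or T on the gene's strand, anywhere in such a window. It was present at 27 of the 75 annotated starts of the 63 members in the table, which is 36%, and at 9.2% of the 32776 other starts. A C exactly at the annotated start followed by 4 pyrimidines was present at 13 of the 75 member starts, which is 17.3%, and at 2.47% of the others. Rplp2 and Rps27 had a run of 9 bases that crosses the start, whereas Rpl41, with a run of 3, Rplp0 with 4, Rps2 with 6 and Rps21 with 7 had no run of the length searched in this window. A match is a description of the letters, and annotated starts may differ from those used in tendon.

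Depth differed between libraries. The cells kept numbered 4450 in adult injury, 5809 in adult control, 13062 in neonate injury and 9524 in neonate control, and their median depth was 10179.5, 9555, 5554.5 and 10336.5 UMIs in the same order. UMIs of Xist but of no Y-linked gene were found in 85.6%, 91.8%, 72.5% and 0.0105% of them, and the reverse in 0.0674%, 0%, 15.8% and 84.3%, so the neonate control library came almost wholly from male cells and the others mostly from female cells. Between 3 and 49 cell barcodes were shared by any pair of libraries. Because each group is 1 library, the state of the tendon, the animals and the library cannot be told apart, and no test between groups was made. The 95% intervals given below are exact binomial and cover counting error only. A cell was put in a class when it held UMIs of at least 0.5 of the marker genes of that class and of no other lineage to a like degree. Fibroblast and tenocyte markers were not counted among the other lineages in that check, so they kept no cell out of another class. In all, 29112 cells were placed.

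The pool of ribosomal protein mRNA was spread over nearly all members. Rplp1, a stalk protein of the large subunit that recruits translation factors, had the highest share with 2.68% of the pool, and among the 10 highest were Rpl13 with 2.40%, Rps2 with 2.14%, Rpl23 with 2.14%, Rplp0 with 2.13%, Rps14 with 2.08%, Rps4x with 2.03%, Rps3a1 with 2.00% and Rps24 with 1.98%. These 10 took 21.8% of the pool and the 20 highest took 38.5%. UMIs of 79 members were found in at least 50% of cells. The other 4, each under 0.1% of the pool, were Rpl7l1, Rpl39l, Rpl3l and Rpl10l, all paralogs of other members. Rpl10l, a retrogene of Rpl10 known from the mouse testis, had 0 UMIs, where 3 counts, taken as the limit for a count of 0 here and below, would be 0.00923 CPM (counts per 1000000 UMIs) over all cells kept.

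Myogenic cells and B cells gave the largest part of their mRNA to ribosomal proteins, and neutrophils the smallest. In neonate control tendon, myocytes reached 19.2% of UMIs (104 cells), B cells 19.1% (62 cells) and myogenic progenitors 17.7% (364 cells). Chondrocytes followed with 11.9%, fibroblast-lineage cells with 11.3%, myofibres with 10.9%, endothelial cells with 10.4%, mural cells with 9.49% and Schwann cells with 8.99%. Mast cells at 8.14% and macrophages at 8.11% were indistinguishable, as were myocytes and B cells, since their intervals overlapped. Neutrophils had 2.69% (95% interval 2.64 to 2.74), with a per-cell quartile range of 1.87% to 2.81%. Erythroid cells, at 15.98% for their summed UMIs, were split: the median cell had 6.80%, the lower quartile lay at 1.85% and the upper at 19.5%. The 81 erythroid cells with at least 2 UMIs of G2M genes per 1000 had 17.3%, against 7.68% in the 19 others.

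**Figure D1:**
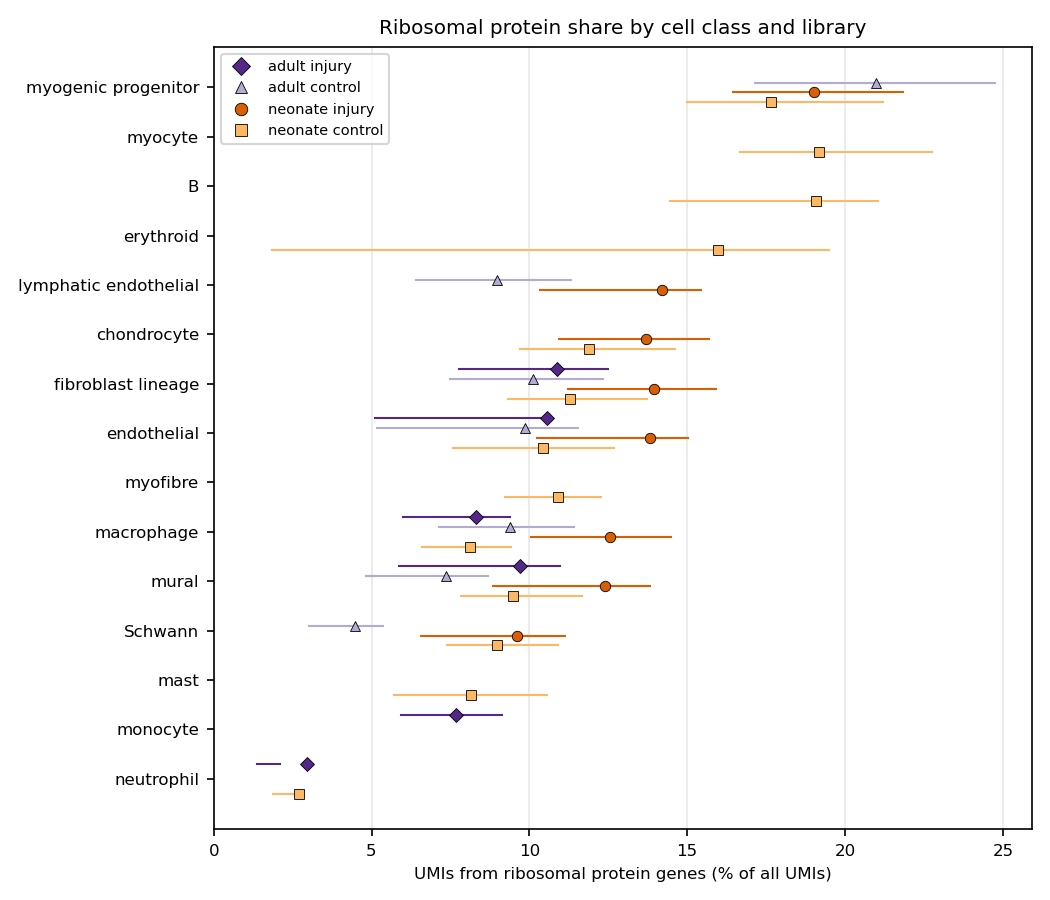
UMIs from ribosomal protein genes as a percent of all UMIs (x axis) in each cell class with at least 50 cells in a library (y axis). Points are summed UMIs of a class in 1 library and lines span the lower to the upper quartile over cells, so a point can lie outside its line where a few deep cells weigh on the sum. Myogenic progenitors lie at 17.7% to 21.0% and neutrophils at 2.69% and 2.96%.

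The ends of the order were similar in the other libraries where those classes could be measured, whereas the middle varied. Macrophages, below mural and Schwann cells in neonate control, stood above both in neonate injury with 12.5% and in adult control with 9.39%. In adult injury they stood below mural cells, at 8.30% and 9.70%. Myogenic progenitors were highest in neonate injury with 19.02% (89 cells) and in adult control with 21.0% (66 cells). Neutrophils were lowest in adult injury with 2.96% (115 cells). Schwann cells, the glia of peripheral nerve, were lowest in neonate injury with 9.60% and in adult control with 4.47%. Monocytes, measured in adult injury alone, had 7.67%.

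Injury in neonates went with a larger ribosomal protein share in each of the 7 classes compared, leaving subsets of the fibroblast lineage aside. Fibroblast-lineage cells had 14.0% of UMIs from these genes in neonate injury (7190 cells) and 11.3% in neonate control (4588 cells), a log2 ratio of 0.31 (95% interval 0.30 to 0.31). Macrophages had 12.5% in neonate injury (1273 cells) and 8.11% in neonate control (288 cells), a log2 ratio of 0.63 (0.62 to 0.63). The log2 ratio was 0.41 in endothelial cells, 0.39 in mural cells, 0.21 in chondrocytes, 0.11 in myogenic progenitors and 0.10 in Schwann cells. The tenocyte subset of the fibroblast lineage had 13.5% in neonate injury and 11.3% in neonate control. In cells of 2000 to 8000 UMIs the fibroblast ratio was 0.06, with 13.7% in neonate injury and 13.1% in neonate control, and the ratio was −0.15 in Schwann cells, −0.13 in chondrocytes and −0.07 in myogenic progenitors. The median over Schwann cells also gave a ratio below 0, at −0.05.

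Within the pool the members differed from each other. In the fibroblast lineage 26 of 82 measured members were at least 1.5-fold higher in neonate injury than in neonate control, where 20% of all 16186 genes measured were, and 2 were at least 1.5-fold lower, where 22.1% of all genes were. The median member had a log2 ratio of 0.22, against −0.03 for the median gene. With cells of 2000 to 8000 UMIs the counts were 13 higher and 7 lower. At that depth 19.9% of 13371 genes were higher and 18.5% lower, so neither count exceeded the background there. In all cells 11 members were at least 2-fold higher, where 9.22% of all genes were, and 1 was lower, where 10.7% were. The highest ratio, 1.44, was that of Rpl3l on 45 UMIs in neonate injury and 18 in neonate control. Among members with at least 100 UMIs the highest had short coding lengths.

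Rpl41, the shortest ribosomal protein, had 3529.9 CPM in neonate injury and 1484 CPM in neonate control fibroblasts, with 2967 CPM in adult injury and 1273 CPM in adult control. The neonatal log2 ratio was 1.25 (1.24 to 1.26). Rps21, a small-subunit protein, had 2089 CPM in neonate injury and 910.1 CPM in neonate control, a log2 ratio of 1.20 (1.18 to 1.21), with 1611 CPM in adult injury and 1552 CPM in adult control. Neonate control was thus the low library for Rps21, whereas for Rpl41 both control libraries were low. Rpl39, which lines the exit tunnel of the large subunit, had 2792 CPM in neonate injury and 1272 CPM in neonate control, a log2 ratio of 1.13, with 1829 CPM in adult injury and 1409.7 CPM in adult control. Rplp2, a stalk protein, had 2172 CPM in neonate injury and 987 CPM in neonate control, a log2 ratio of 1.14, with 1764 CPM in adult injury and 1259 CPM in adult control. Its partner Rplp1 had 4723 CPM in neonate injury and 2242 CPM in neonate control, a log2 ratio of 1.08, with 3920.3 CPM in adult injury and 2503 CPM in adult control. Rpl34, Rpl37, Rpl36, Rpl37a and Rps27 also had log2 ratios above 1 in neonate injury over neonate control, between 1.03 and 1.09.

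At the other end stood members of long coding length and low paralogs. Rpl3, which lies near the peptidyl transferase centre, had 918 CPM in neonate injury and 1326 CPM in neonate control fibroblasts, a log2 ratio of −0.53 (−0.55 to −0.51), with 910.4 CPM in adult injury and 894 CPM in adult control. Rpl5, which carries the 5S ribosomal RNA into the large subunit, had 1062 CPM in neonate injury and 1514 CPM in neonate control, a log2 ratio of −0.51, with 1005 CPM in adult injury and 1079 CPM in adult control. For both genes the 3 libraries other than neonate control were close together. Rpl8 had a log2 ratio of −0.46. The 2 members that were at least 1.5-fold lower in neonate injury were Rpl39l, at 5.26 CPM in neonate injury and 11.1 CPM in neonate control, and Rpl7l1, at 26.8 CPM in neonate injury and 41.0 CPM in neonate control.

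Coding length ordered the members. It was taken from the gene models for the 78 members with at least 100000 UMIs and ran from 75 bases in Rpl41 to 1257 bases in Rpl4, and this way of grouping was chosen after the values had been seen. All 26 members of up to 399 coding bases were higher in neonate injury than in neonate control fibroblasts, with a median log2 ratio of 0.78, and 19 of them were at least 1.5-fold higher. Of the 26 members of 576 or more coding bases 3 were higher, with a median of −0.16, and the median of the 26 between was 0.30. Across the 78 genes Spearman's rho between coding length and log2 ratio was −0.84 and Pearson's r with log2 length was −0.78, given as descriptions, since all points come from the same pair of libraries. In cells of 2000 to 8000 UMIs rho was −0.86 and the medians were 0.57 for the shortest 26 and −0.40 for the longest 26. Genes outside the family had a median log2 ratio of 0.04 under 300 coding bases (301 genes), −0.23 at 300 to 599 bases (1487 genes), −0.10 at 600 to 1199 bases (3953 genes), 0.03 at 1200 to 2399 bases (5047 genes) and 0.04 from 2400 bases (3006 genes). Among those with at least 10000 UMIs in the 2 libraries the medians were 0.07 under 300 bases (92 genes), −0.37 at 300 to 599 bases (280 genes), −0.29 at 600 to 1199 bases (466 genes), −0.11 at 1200 to 2399 bases (468 genes) and −0.03 from 2400 bases (460 genes). Under 300 bases these abundant genes were thus above those of 300 to 1199 bases. From 300 bases up their medians rose with length, which is not the order of the members.

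**Figure D2:**
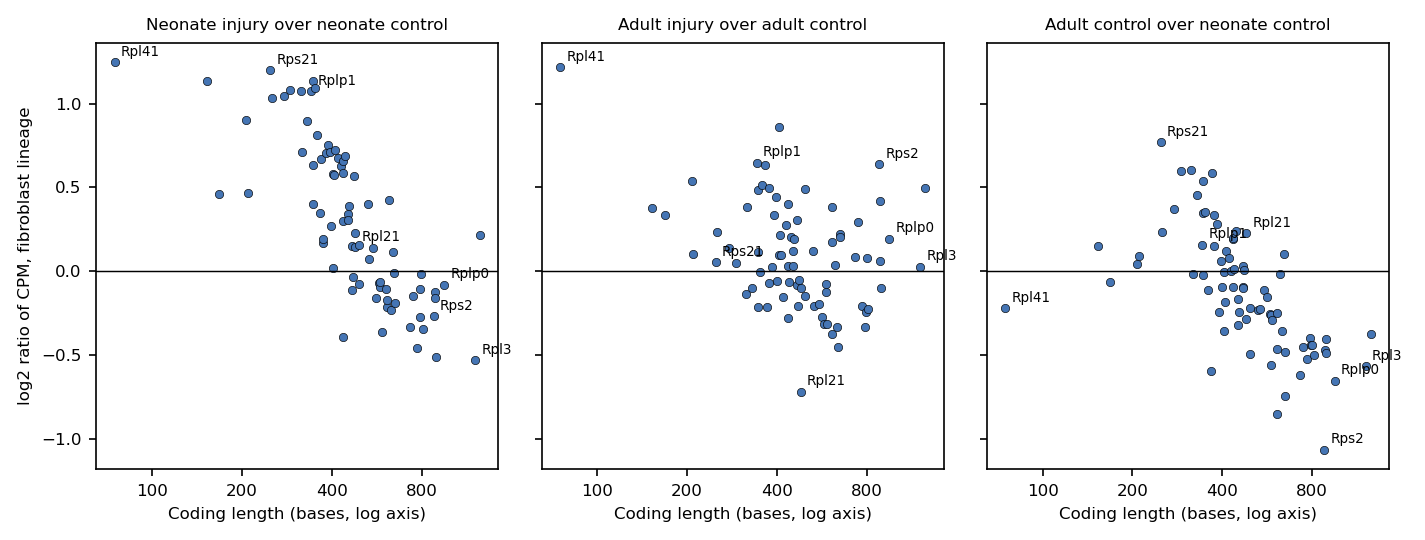
Log2 ratio of CPM in fibroblast-lineage cells (y axis) against coding length in bases on a log axis (x axis) for 78 ribosomal protein genes, with 1 point per gene and 1 panel per comparison. In the panel of neonate injury over neonate control the points run from 1.25 at Rpl41 to −0.53 at Rpl3, and rho is −0.84, against −0.30 in that of adult injury over adult control.

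The other 6 classes compared had the same order. In neonate injury over neonate control rho was −0.83 in macrophages, −0.84 in endothelial cells, −0.85 in mural cells, −0.81 in Schwann cells, −0.84 in chondrocytes and −0.83 in myogenic progenitors. In macrophages the medians were 1.07 for the shortest 26 and 0.13 for the longest 26. In Schwann cells they were 0.56 and −0.32 in the same order, so a small difference of the whole pool held differences in both directions. Rps27 was the member with the highest ratio in macrophages, at 1901 CPM in neonate injury and 621 CPM in neonate control, a log2 ratio of 1.61. Macrophages had 37 of 80 members at least 1.5-fold higher in neonate injury, where 16.8% of all genes were, and 0 at least 1.5-fold lower, where 21.6% were. Endothelial cells had 31 of 80 members higher, where 19.6% of genes were, and 0 lower, where 13.1% were. Mural cells had 28 of 81 higher and 1 lower, beside 17.5% and 14.9% of genes. In chondrocytes 18 of 81 were higher and 5 lower, beside 18.6% and 34% of genes. In Schwann cells 12 of 80 were higher and 2 lower, beside 20.5% and 16.3%, and in myogenic progenitors 13 of 80 were higher and 2 lower, beside 17.7% and 17%. In all cells of a class the share of members that were higher was thus above the background in fibroblasts, macrophages, endothelial cells and mural cells, and close to or below it in the other 3 classes.

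Neonate control was not at the end of the levels of short or of long members in every class, whereas their quotient set it apart in all 7 classes. In the fibroblast lineage the 26 shortest members took 3.89% of UMIs in adult injury, 3.18% in adult control, 5.05% in neonate injury and 2.84% in neonate control. The 26 longest took 3.51%, 3.55%, 4.37% and 4.84% in the same order. For the shortest members neonate injury thus stood highest and neonate control lowest. For the longest, neonate control stood highest and both neonatal libraries stood above both adult ones. The quotient of the shortest over the longest was 1.11 in adult injury, 0.896 in adult control, 1.16 in neonate injury and 0.587 in neonate control. In all 7 classes it was lowest in neonate control, between 0.539 in Schwann cells and 0.655 in macrophages. In the other 3 libraries it lay between 0.796, in myogenic progenitors of adult control, and 1.31, in macrophages of neonate injury. Neonate control was also the library with almost only male cells. With cells that had Y-linked and no Xist UMIs in both neonatal libraries the fibroblast ratio for the share of the whole pool was 0.30. The quotient was not computed in those cells, so its relation to sex was not tested. The part of RNA quality or library preparation was not tested.

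**Figure D3:**
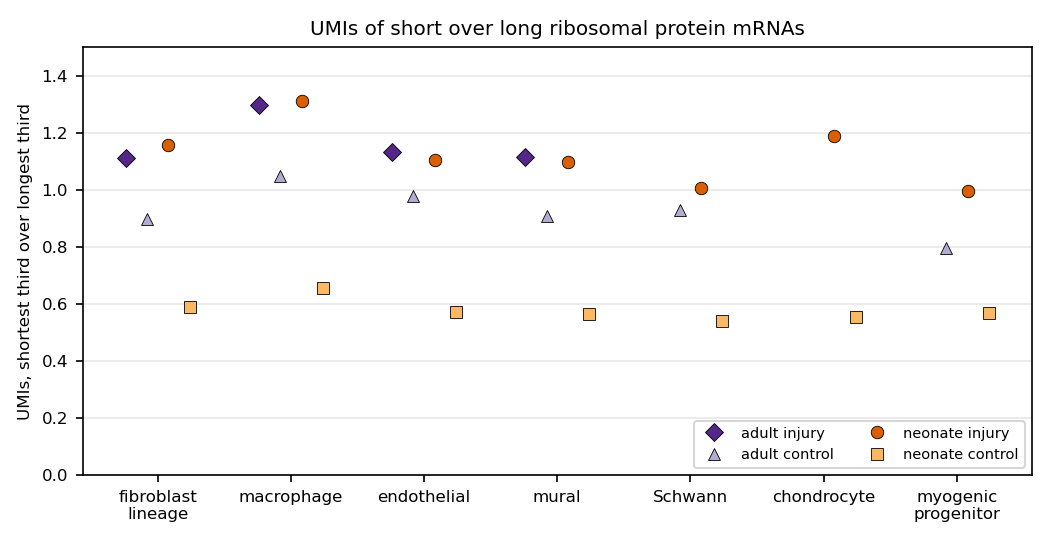
UMIs of the 26 ribosomal protein genes of shortest coding length divided by UMIs of the 26 of longest coding length (y axis) in 7 cell classes (x axis), with 1 point per library. Neonate control lies between 0.539 and 0.655 in the 7 classes and the other libraries lie at 0.796 or above.

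After adult injury the share was higher in 3 of 4 classes and lower in macrophages. Fibroblast-lineage cells had 10.9% of UMIs from ribosomal protein genes in adult injury (1656 cells) and 10.1% in adult control (3261 cells), a log2 ratio of 0.10 (0.10 to 0.10). The tenocyte subset had 10.8% in adult injury (434 cells) and 9.60% in adult control (1841 cells), a log2 ratio of 0.16. The other fibroblasts had 10.9% in adult injury (1222 cells) and 10.8% in adult control (1420 cells), a log2 ratio of 0.02. When cells were classed by Leiden cluster instead of by gate, the tenocyte ratio had the opposite direction. The median fibroblast-lineage cell had 9.81% in adult injury and 9.92% in adult control, which is a log2 ratio of −0.01. The sum is weighted to deep cells: 920 adult injury fibroblasts had 16000 or more UMIs and 11.2%, and 326 with 8000 to 16000 UMIs had 9.18%. Mural cells had 9.70% in adult injury and 7.35% in adult control, a log2 ratio of 0.40, with median depths of 22226 and 8120 UMIs. Endothelial cells had 10.5% in adult injury and 9.88% in adult control, a log2 ratio of 0.09 that was −0.21 in cells of 2000 to 8000 UMIs. Macrophages had 8.30% in adult injury (1208 cells) and 9.39% in adult control (181 cells), a log2 ratio of −0.18. UMIs of the 8 fibroblast markers stood at 8069.8 CPM in adult injury macrophages and 529 CPM in adult control macrophages, at 59580.5 CPM in adult injury and 17026.3 CPM in adult control mural cells, and at 6557 CPM in adult injury and 1277 CPM in adult control endothelial cells. Of these markers, the collagen genes Col1a1, Col1a2 and Col3a1 took 5.54% of UMIs in adult injury and 1.09% in adult control mural cells. In fibroblast-lineage cells they took 6.25% and 2.72% in the same order. The part of the fibroblast markers in these ratios was not tested.

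Few members differed by 1.5-fold after adult injury. In the fibroblast lineage 7 of 81 members were at least 1.5-fold higher in adult injury than in adult control, where 26.6% of all 14991 genes were, and 1 was at least 1.5-fold lower, where 24.4% were. In cells of 2000 to 8000 UMIs 4 of 80 members were higher, where 23.9% of genes were, and 1 lower, where 20% were. At 2-fold 2 members were higher, where 16.3% of genes were, and 0 lower, where 14.7% were. Mural cells had 18 of 81 members at least 1.5-fold higher and 1 lower, beside 26.1% and 23.4% of genes. Endothelial cells had 5 of 80 higher and 1 lower, beside 19.1% and 16.7%, and macrophages 1 higher and 3 lower of 80, beside 22.9% and 21.1%. None of these counts exceeded the background. Rpl41 had 2967 CPM in adult injury and 1273 CPM in adult control fibroblasts, a log2 ratio of 1.22 (1.20 to 1.24), and its ratio was 0.94 in macrophages, 0.92 in endothelial cells and 1.27 in mural cells. Also higher were Rpl39l, Rps27l, Rplp1, Rps2 and Rpl22l1. Rps2, which lines the mRNA entry channel, had 2354 CPM in adult injury and 1511 CPM in adult control, a log2 ratio of 0.64, and its ratio was 0.20 in macrophages, 0.74 in endothelial cells and 0.76 in mural cells.

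Rpl21, a large-subunit protein, was the 1 member at least 1.5-fold lower after adult injury. It had 928 CPM in adult injury and 1527 CPM in adult control fibroblasts, a log2 ratio of −0.72 (−0.74 to −0.70), with 1442 CPM in neonate injury and 1306 CPM in neonate control. The ratio was −0.98 in macrophages, −0.83 in endothelial cells and −0.62 in mural cells, and all 4 classes come from the same pair of libraries. Rpl10, which joins the large subunit late in its assembly, had 1300.4 CPM in adult injury and 1778 CPM in adult control, a log2 ratio of −0.45, and ratios of −0.82 in macrophages, −0.20 in endothelial cells and −0.09 in mural cells. Both genes have near-identical retrocopies, so their counts are uncertain. Rps4x and Rpl13 each had a log2 ratio of −0.33. Length ordered the members only weakly here, with rho of −0.30 in fibroblasts, and the medians were 0.19 for the 26 shortest and 0.03 for the 26 longest.

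**Figure D4:**
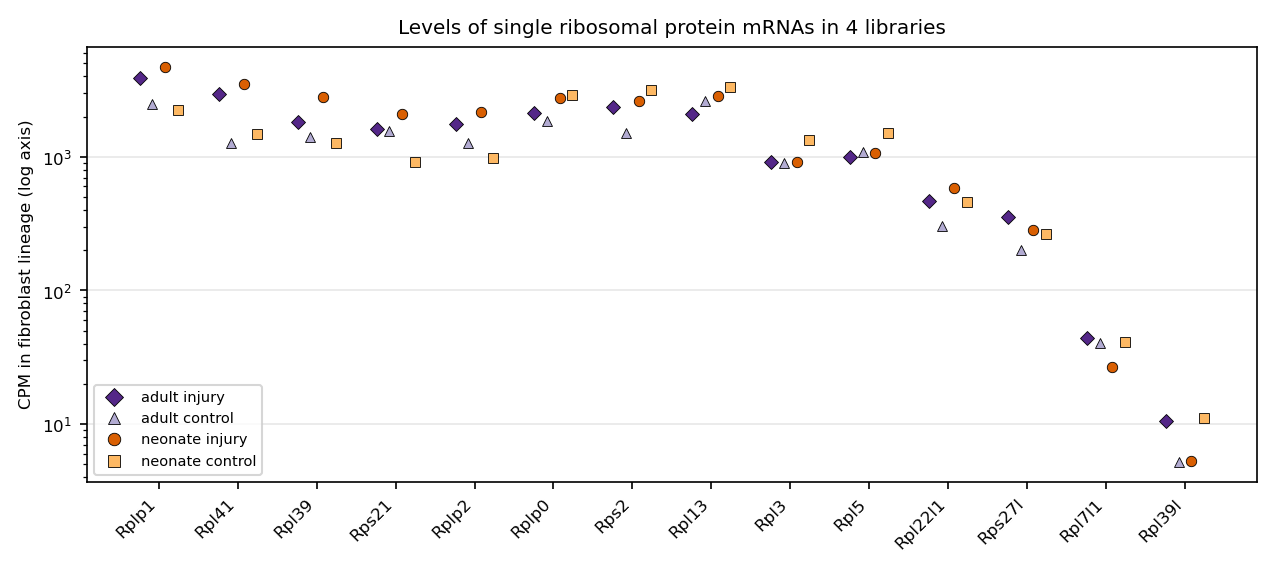
CPM on a log axis (y axis) of 14 ribosomal protein genes (x axis) in fibroblast-lineage cells, with 1 point per library. Rpl41 stands at 2967 and 3529.9 CPM in the injury libraries and at 1273 and 1484 CPM in the control libraries, and Rps21 is lowest in neonate control at 910.1 CPM.

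Uninjured tendon was compared across age. Adult control cells had a smaller ribosomal protein share than neonate control cells in 4 of 6 classes. Schwann cells differed most, with 4.47% in adult control (73 cells) and 8.99% in neonate control (511 cells), a log2 ratio of −1.01 (−1.03 to −0.98). The median depth of these cells was 4005 UMIs in adult control and 10927 UMIs in neonate control, and all 26 of the longest members were at least 1.5-fold lower in adult control, also in cells of 2000 to 8000 UMIs. In all Schwann cells 61 of 80 members were at least 1.5-fold lower in adult control, where 25.5% of all genes were, and 0 were at least 1.5-fold higher, where 27.9% were. Rps2 had 626 CPM in adult control and 2469 CPM in neonate control Schwann cells, a log2 ratio of −1.98, and Rplp0 had 849 CPM in adult control and 2924 CPM in neonate control, a log2 ratio of −1.78. Mural cells had 7.35% in adult control and 9.49% in neonate control, a log2 ratio of −0.37. Macrophages went the other way, with 9.39% in adult control and 8.11% in neonate control, a log2 ratio of 0.21, and so did myogenic progenitors, with 21.0% in adult control and 17.7% in neonate control, a log2 ratio of 0.25.

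In the fibroblast lineage the age difference of the pool was small, at 10.1% in adult control and 11.3% in neonate control. The log2 ratio was −0.16 (−0.16 to −0.16), and the median of all genes was itself −0.11, so that the pool stood 0.05 below the median gene. In cells of 2000 to 8000 UMIs the log2 ratio was −0.53, with 9.06% in adult control and 13.1% in neonate control. At least 1.5-fold lower in adult control were 7 of 81 members, where 28.4% of all 15782 genes were, and at least 1.5-fold higher were 3, where 21.1% were. In cells of 2000 to 8000 UMIs 35 of 81 members were lower, where 23.1% of 11298 genes were, and 0 higher, where 24.9% were. Less the median ratio of all genes, 4 members were lower and 5 higher. At 2-fold 2 members were lower, where 17.3% of genes were, and 0 higher, where 12.1% were. Mural cells had 22 of 81 members at least 1.5-fold lower and 1 higher in adult control, beside 22.8% and 20.5% of genes, and endothelial cells 6 lower and 2 higher of 80, beside 18.7% and 29.3%. Macrophages had 15 higher and 1 lower of 80, beside 22% and 17.9%, and myogenic progenitors 13 higher and 2 lower of 80, beside 20.3% and 34%.

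Rps2 had 1511 CPM in adult control and 3164 CPM in neonate control fibroblasts, a log2 ratio of −1.07 (−1.08 to −1.05), and its ratio was −0.69 in macrophages, −1.25 in endothelial cells, −1.22 in mural cells and −0.54 in myogenic progenitors. Rpl15 had 1054 CPM in adult control and 1903 CPM in neonate control, a log2 ratio of −0.85. Rpl14 had 898 CPM in adult control and 1509 CPM in neonate control, a log2 ratio of −0.75. Rplp0, the base of the stalk, had 1860.2 CPM in adult control and 2926 CPM in neonate control, a log2 ratio of −0.65, with 2128 CPM in adult injury and 2767 CPM in neonate injury. Adult levels of Rplp0 lay below neonatal levels in both states of the tendon. Higher in adult control were Rps21, with a log2 ratio of 0.77, Rpl36 with 0.61, Rpl37 with 0.60, Rpl35 with 0.58 and Rpl30 with 0.54. All 5 have short coding lengths. Coding length ordered the members here as well, with rho of −0.75, and this comparison shares the neonate control library with that of neonatal injury and the adult control library with that of adult injury.

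The X-linked members had no common pattern in fibroblasts. Rps4x had 1744 CPM in adult injury, 2196 CPM in adult control, 2692 CPM in neonate injury and 2895 CPM in neonate control. Rpl36a had 812, 623, 1032 and 631 CPM in the same order of libraries. Rps4x was thus highest in the library with almost only male cells, whereas Rpl36a, Rpl39 and Rpl10 were not. Rpsa, which is also known as the laminin receptor precursor, had 1791, 1339, 1702 and 1855 CPM in that order.

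The balance of the subunits was nearly constant. Small-subunit genes made up 44.6% of the pool in adult injury, 43.6% in adult control, 44.3% in neonate injury and 45.1% in neonate control fibroblasts. The 3 stalk genes Rplp0, Rplp1 and Rplp2 made up 7.18%, 5.55%, 6.92% and 5.45% of the pool in the same order. As a sum they put both injury libraries above both control libraries. Rplp1 and Rplp2 each had that arrangement, whereas Rplp0 took 1.96%, 1.84%, 1.98% and 2.59% and was highest in neonate control. For the sum, macrophages showed the same arrangement with 7.27%, 5.72%, 6.59% and 4.92%. So did mural cells with 7.12%, 5.30%, 6.68% and 5.27% and endothelial cells with 6.24%, 4.81%, 5.91% and 5.26%. In macrophages too Rplp0 took less in neonate injury, at 1.36%, than in neonate control, at 1.88%.

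Across cell classes the make-up of the pool varied by a median SD of 0.21 in log2 share, over 72 members with at least 100 UMIs in each of 14 classes. Rps27 varied most with an SD of 0.50, at 2.07% of the pool in neutrophils and 0.516% in erythroid cells. The neutrophil value joins 1.55% in neonate control and 2.60% in adult injury, whereas the erythroid cells were of neonate control alone. Rps21 had an SD of 0.44, Rps2 0.43, Rps29 0.42 and Rpl14 0.39. Several of these classes were measured in neonate control alone, so the spread was also taken over the 13 classes of that library, where 52 members could be used and the median SD was 0.18. There Rps27a, Rps2, Rps27, Rps9 and Rps29 varied most. Rps2 took 3.79% of the pool in erythroid cells and 0.996% in neutrophils, and Rps27a, which is made as a fusion with ubiquitin, took 5.19% in neutrophils and 1.41% in Schwann cells. In the neutrophils of adult injury it took 1.56%, on 170 UMIs, so the high share was seen in 1 of 2 libraries. Rps29 took 2.91% in macrophages and 1.08% in myocytes.

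Paralogs marked some classes and not others. Rpl3l, which replaces Rpl3 in striated muscle, had 14 UMIs in the 93 myofibres of neonate control, 14.0 CPM, or 1.18% of the Rpl3 and Rpl3l pair (95% interval 0.648 to 1.98). In fibroblasts it had 22 UMIs in adult injury, 5 in adult control, 45 in neonate injury and 18 in neonate control, which is at most 0.939 CPM. Myocytes of neonate control had 0 UMIs, with 3 counts being 2.62 CPM. Neutrophils of neonate control had 9 UMIs, 21.3 CPM, beside 54 UMIs of Rpl3, and neutrophils of adult injury had 4. Rpl39l, known from mouse male germ cells, was present in fibroblasts at 10.5 CPM in adult injury, 5.19 CPM in adult control, 5.26 CPM in neonate injury and 11.1 CPM in neonate control. Chondrocytes of neonate control had 10.8 CPM and mural cells of adult injury 15.1 CPM. Myogenic progenitors of neonate control had 0 UMIs of Rpl39l, with 3 counts being 0.756 CPM. Endothelial cells stood at 1.14 to 1.51 CPM in the 4 libraries.

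Rpl22l1, the paralog of Rpl22, had more UMIs than the other paralogs in the fibroblast lineage, whereas Rps27l had more in macrophages and in Schwann cells. In fibroblasts it had 469 CPM in adult injury, 303 CPM in adult control, 585 CPM in neonate injury and 459 CPM in neonate control, beside 788, 775, 1043 and 638 CPM of Rpl22 in the same order. Its share of the pair was 37.3% in adult injury, 28.1% in adult control, 35.9% in neonate injury and 41.8% in neonate control. In macrophages the share was lower in each library, at 23.8%, 21.1%, 21.8% and 30.3%. The injury log2 ratio of Rpl22l1 in fibroblasts was 0.63 in adults and 0.35 in neonates. Rps27l, a p53 target, had 356 CPM in adult injury, 202 CPM in adult control, 286 CPM in neonate injury and 263 CPM in neonate control fibroblasts. It was 21.1%, 15.2%, 12.7% and 21.4% of the Rps27 and Rps27l pair in that order, and the low neonate injury value goes with the higher Rps27 of that library. Schwann cells of neonate control had the highest share of Rps27l, at 40.0% (38.9 to 41.2) with 462 CPM. Rpl7l1, whose yeast relative acts in ribosome assembly, stood at 43.9 CPM in adult injury, 40.4 CPM in adult control, 26.8 CPM in neonate injury and 41.0 CPM in neonate control fibroblasts. The symbol Rps4l was not among the genes listed.

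**Figure D5:**
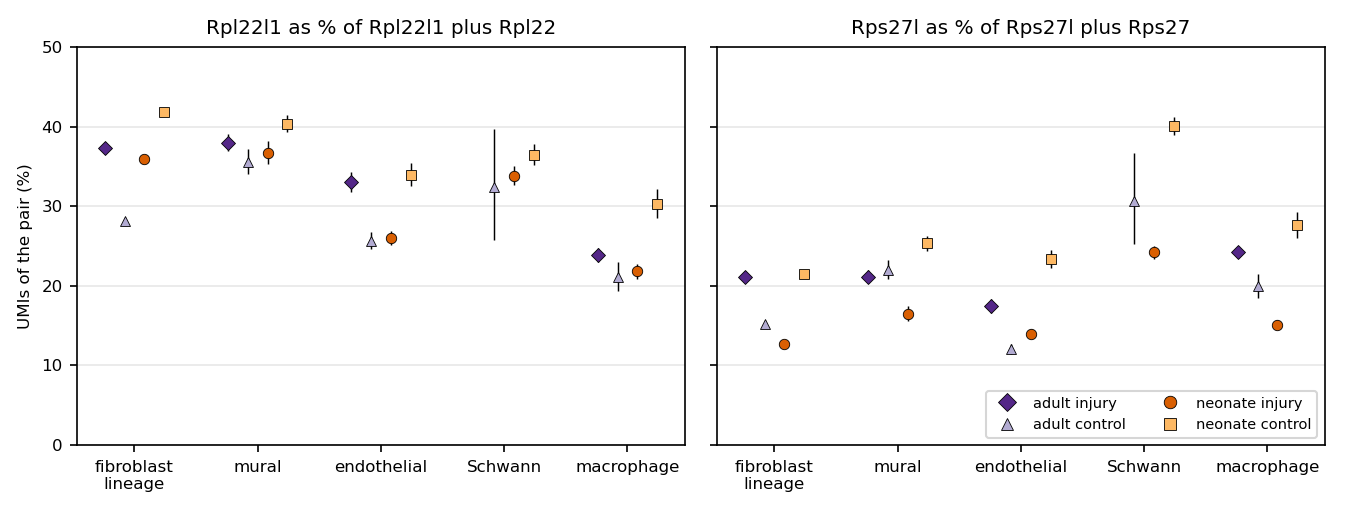
UMIs of Rpl22l1 as a percent of Rpl22l1 plus Rpl22 (left panel) and of Rps27l as a percent of Rps27l plus Rps27 (right panel) on the y axes, in 5 cell classes on the x axes, with 1 point per library and 95% exact binomial intervals that cover counting error only. In fibroblasts Rpl22l1 takes 28.1% in adult control and 41.8% in neonate control, and Rps27l reaches 40.0% in Schwann cells of neonate control.

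Cycling fibroblasts, those with at least 2 UMIs of G2M genes per 1000, had a lower share than the others in both neonatal libraries and a higher one in adult injury. In neonate injury 193 such cells had 13.1%, against 14.0% in the 6997 others, and in neonate control 305 had 10.0%, against 11.4% in the 4283 others. In adult injury 149 had 11.7%, against 10.8% in the 1507 others. Cycling cells were deeper than the others in each of these libraries. Median UMIs were 8235 and 6024 in neonate injury, 15298 and 10645 in neonate control, and 25599 and 17719 in adult injury. Between cells of 8000 to 16000 UMIs and deeper ones, the fibroblast share went from 11.6% to 9.90% in neonate control. It went from 14.27% to 14.97% in neonate injury and from 9.18% to 11.2% in adult injury. The part of depth was not tested. With cycling cells left out the fibroblast log2 ratio was 0.29 for neonatal injury, 0.09 for adult injury and −0.17 for adult over neonate control.

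Several other lists of the translation machinery had medians below 0 in neonate injury over neonate control fibroblasts, and no difference between lists was tested. The background for the counts that follow is 22.1% of all genes on the lower side and 20% on the higher side, and the median gene stood at −0.03. Among 22 ribosome biogenesis genes 13 were at least 1.5-fold lower in neonate injury than in neonate control fibroblasts and 0 were higher, with a median log2 ratio of −0.72. Fbl, the ribosomal RNA methyltransferase fibrillarin, had 39.9 CPM in neonate injury and 99.2 CPM in neonate control, a log2 ratio of −1.31. Ncl, nucleolin, had a log2 ratio of −1.17 and Rrp12 one of −1.53. Of 13 subunit genes of initiation factor 3, 7 were at least 1.5-fold lower, led by Eif3g with −1.25 and Eif3m with −1.04, and the median was −0.61. Mitochondrial ribosomal protein genes were at least 1.5-fold lower in 40 of 78 cases and higher in 2, with a median of −0.60. Of 13 other TOP mRNAs 5 were lower and 2 higher, with a median of −0.32, and of 5 elongation genes 1 was lower and 0 higher, with a median of −0.13. Fau, which encodes a ribosomal protein fused to a relative of ubiquitin and lies outside the symbol rule, had a log2 ratio of 0.69. Myc, a transcription factor that drives ribosome biogenesis genes, had 97.7 CPM in neonate injury and 173 CPM in neonate control. All 20 G2M genes were at least 1.5-fold lower in neonate injury as well, with a median of −1.48, and their part in the lists above was not tested.

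In adult injury the counts of the biogenesis list were near the background for higher genes. Of the 22 genes 6 were at least 1.5-fold higher in adult injury than in adult control fibroblasts, where 26.6% of all genes were, and 0 lower, where 24.4% were, with a median of 0.28 against 0.03 for all genes, and Bysl had a log2 ratio of 1.18. Among 13 other TOP mRNAs 5 were higher and 0 lower, beside the same 26.6% and 24.4%, with Pabpc1, the poly(A)-binding protein, at 830 CPM in adult injury and 316 CPM in adult control. Of 5 elongation genes Eef1g had a log2 ratio of 1.60 and Eef1d one of −0.94. All 20 G2M genes were at least 1.5-fold higher in adult injury. Between adult control and neonate control, 8 of 13 other TOP mRNAs were at least 1.5-fold lower in adult control and 0 higher, where 28.4% and 21.1% of all genes were, with a median of −0.79 against −0.11 for all genes, among them Hnrnpa1 with −1.32 and Tpt1, which had 4657 CPM in adult control and 9592 CPM in neonate control. Of 22 biogenesis genes 8 were lower in adult control and 0 higher, which for lower genes is near the same background, and Nop58 had a log2 ratio of −1.61.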

How the data were processed

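UMI counts per gene and cell barcode were deposited for 4 libraries. Per the file headers they came from Cell Ranger 8.0.1, and per the submitters' processing notes the build was GRCm39. Barcodes with at least 500 genes and 1000 UMIs passed unless mitochondrial UMIs exceeded 15%, and likely doublets were removed by Scrublet score (scanpy 1.11.5) at a rate of 0.8% for each 1000 barcodes, in all 175, 304, 1823 and 905 in adult injury, adult control, neonate injury and neonate control. Classes were gated cell by cell on marker lists, with thresholds set after the data had been seen. The members, markers and gene lists were chosen with earlier results of these data known. UMIs were summed per class and library and given as a percent of UMIs or as CPM, without scaling for gene length, so that levels of different genes are not compared as molecules per length. Log2 ratios compare CPM after adding 0.5 to each sum, over genes with at least 50 UMIs in the 2 libraries, in classes with at least 50 cells in both. Gaps of 1.5-fold are descriptions. The ratio and its interval were tested on simulated data. The replicate number of each library is 1, so no p-value can be had.

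Genes named are the 10 members highest in the pool, the paralogs with their parents, the X-linked and stalk members and Rpsa, the 5 members with the highest and the 5 with the lowest ratio in the fibroblast lineage for each comparison, the 5 that vary most across classes, and up to 4 with the largest ratio of each other list; members named for other classes were chosen after their values were seen, as were the 5 most variable in neonate control. Coding lengths come from GENCODE M21 by gene ID, used only as a property of the gene. Reads of retrocopies can be split from their parent gene: Rpl10-ps3, Rpl9-ps6 and Rps27rt, listed as genes of their own, had 15800, 11375 and 15682 UMIs, so levels of Rpl10, Rpl9, Rps27 and of other members with near-identical copies such as Rpl21 are uncertain to that degree. A few genes that this rule names are not reported here.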

Additional observations from a re-analysis of the deposited data

Results flagged for a closer look

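The ribosomal protein share of macrophages differed in opposite directions after injury at the 2 ages. Its log2 ratio was 0.63 in neonates, with 12.5% of UMIs in neonate injury and 8.11% in neonate control, and −0.18 in adults, with 8.30% in adult injury and 9.39% in adult control, a difference of 0.81. The difference was not tested, since each group is 1 library.

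Rpl39l, a low paralog, also had opposite directions in the fibroblast lineage. Its log2 ratio was −1.07 in neonates, at 5.26 CPM in neonate injury and 11.1 CPM in neonate control, and 1.02 in adults, at 10.5 CPM in adult injury and 5.19 CPM in adult control, a difference of −2.09. This difference was not tested either. The other fibroblasts carried both ratios, at −1.46 in neonates (141 UMIs in neonate injury and 510 in neonate control) and 1.70 in adults (266 UMIs in adult injury and 62 in adult control). In tenocytes the ratio was −0.10 (95% interval −0.53 to 0.34) in neonates and 0.27 (−0.14 to 0.66) in adults, and tenocytes were 434 of 1656 fibroblast-lineage cells in adult injury and 1841 of 3261 in adult control.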

How the results depend on the processing

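No paired analysis was possible because each group held 1 library, and for the same reason no library could be left out. Values run adult injury, adult control, neonate injury, neonate control for the fibroblast share, and neonatal injury, adult injury, adult over neonate control for its log2 ratio. The share was 9.55%, 9.06%, 13.65% and 13.06% in cells of 2000 to 8000 UMIs (ratios 0.063, 0.076, −0.527), 10.82%, 10.05%, 13.84% and 11.17% by Leiden cluster (0.3095, 0.106, −0.152), 10.86%, 10.15%, 14.06% and 11.26% with doublets kept (0.320, 0.0970, −0.150), 11.17%, 10.32%, 14.29% and 11.52% without mitochondrial genes (0.311 and 0.113 for injury), 11.02%, 10.31%, 14.18% and 11.43% with the ribosomal protein genes outside the symbol rule (0.311, 0.0958, −0.148), and 9.813%, 9.916%, 13.5% and 11.32% as the median over cells (0.254, −0.015, −0.191). Without cycling cells it was 10.76% in adult injury, 13.99% in neonate injury and 11.41% in neonate control (0.294, 0.0872, −0.172). The stricter cell filter gave 10.91%, 10.15% and 14.02% in the first 3 libraries (0.3115 for neonatal injury, −0.155 for age), and the looser one 10.86% in adult injury and 13.94% in neonate injury (0.3045). Relative to the median gene the ratios were 0.334, 0.072 and −0.047, and in Y-linked cells the neonatal one was 0.298. The small-subunit percent of the pool was 44.48, 43.52, 44.17 and 45.05 as a mean over cells and 44.54 in adult injury by Leiden cluster.

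Counts of members depended on the setting too. At 2-fold they were 11 higher and 1 lower for neonatal injury, 2 and 0 for adult injury, and 0 and 2 for age. In cells of 2000 to 8000 UMIs they were 13 and 7 for neonatal injury, 4 higher for adult injury, and 0 and 35 for age. Less the median ratio of all genes they were 5 and 4 for age, and 1 lower for neonatal injury, as also with CPM outside the pool and in Y-linked cells. Directions turned in other classes: in cells of 2000 to 8000 UMIs for neonatal Schwann cells (−0.147), chondrocytes (−0.128), myogenic progenitors (−0.0657) and adult endothelial cells (−0.207), in Y-linked Schwann cells (−0.0988), by Leiden cluster for adult tenocytes (−0.396), and over the median cell for neonatal Schwann cells (−0.0492), adult other fibroblasts (−0.0858) and adult endothelial cells (−0.0582). The causes were not tested. Depth limits the paralogs with few UMIs and the 73 adult Schwann cells.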
